A study of Mus musculus with 6 samples.

Results

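The CD300 family is a set of immunoglobulin-like receptors on myeloid cells, mast cells among them, and its mouse genes lie in a cluster on chromosome 11. The members described here are 10 genes of that cluster, taken by name: Cd300a, Cd300c, Cd300c2, Cd300lb, Cd300ld, Cd300ld2, Cd300ld3, Cd300ld4, Cd300ld5 and Cd300lf. They are 10 of the 35297 genes in the tables, of which 18894 had reads. The family was chosen on the measured difference between strains in these same libraries. The strain values of the members are therefore a description: no p is given for a member, and counts of members called only place them beside all genes.

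The study compared mast cells grown from bone marrow (BMMCs) between BALB/c mice and C57BL/6 mice in relation to the processing of IL-33 in allergic asthma. Marrow of naive wild type mice was grown in medium containing stem cell factor together with IL-3, IL-9 and TGF-β1, and RNA was taken on day 20. Poly(A) RNA of 3 BALB/c libraries (S9, S10 and S11) and 3 C57BL/6 libraries (S12, S13 and S14) was sequenced. The strains were the sole contrast, no stimulation is named for any library, and the study calls the libraries of a strain biological replicates, though whether they came from separate mice is not said in the labels, so spread and p-values refer to these libraries.

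CD300 receptors bind lipids such as phosphatidylserine, phosphatidylethanolamine, ceramide and sphingomyelin, and come in inhibitory and activating forms with related extracellular domains. The inhibitory forms, Cd300a and Cd300lf, carry ITIMs in a long cytoplasmic tail, which recruit phosphatases and restrain signals from the high-affinity IgE receptor. The activating forms, such as Cd300lb, have a short tail and signal through adaptors with ITAM or related motifs, among them DAP12 (Tyrobp), DAP10 (Hcst) and the Fc receptor γ chain (Fcer1g). Adaptor use differs between receptors.

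Reads assigned to genes ranged from 28273365 to 37100869 per library. Of 12461 genes that passed the filter on low counts, 963 (7.73%) were called higher and 690 (5.54%) lower in C57BL/6, a call being an adjusted p under 0.05 with a fold change above 2 (edgeR's quasi-likelihood test). The libraries expressed the mast cell genes looked for: all 10 passed the filter, with Kit at 1766 ± 125 CPM in BALB/c, against 1947 ± 26.3 CPM in C57BL/6 (SD, n = 3 each). Hdc and Tpsb2 of that list were called higher in C57BL/6. CPM here are counts scaled to a library size corrected by TMM, and TPM also divide by transcript length, so levels of different genes are compared in TPM.

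In GRCm39 the 10 members span chr11:114768840-115024818, a stretch of 255.98 kb. Cd300a (114768840 to 114795480) lies at the low end on the plus strand, and the other members are on the minus strand. Cd300lb follows at 114813607 to 114825212, then Cd300c (114846942 to 114859983), Cd300ld (114873099 to 114880748) and Cd300c2 (114887546 to 114895068). A run of closely related genes comes next, namely Cd300ld2 (114901161 to 114907019), Cd300ld4 (114911554 to 114917838), Cd300ld5 (114922312 to 114928595) and Cd300ld3 (114932957 to 114939235). Cd300lf closes the cluster at 115007040 to 115024818, inside the gene Rab37, which is read from the opposite strand.

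Promoter windows of 300 bases, from 250 before to 50 after the start of transcription, were available for 9 of the 10 members from RefSeq (GRCm38.p6) and were placed in GRCm39 by exact match. They are shown for the member whose level differed most in absolute terms between strains, Cd300lb, and for the ITIM receptors Cd300a and Cd300lf, whose levels stayed within 2-fold. All run 5′ to 3′ on the gene's own strand, and they are the reference sequence, which is that of C57BL/6J. Capitals mark the letters TATAAA, the core of a TATA box, or GAGGAAG, a core bound by the myeloid factor PU.1, each on either strand.
Cd300lb: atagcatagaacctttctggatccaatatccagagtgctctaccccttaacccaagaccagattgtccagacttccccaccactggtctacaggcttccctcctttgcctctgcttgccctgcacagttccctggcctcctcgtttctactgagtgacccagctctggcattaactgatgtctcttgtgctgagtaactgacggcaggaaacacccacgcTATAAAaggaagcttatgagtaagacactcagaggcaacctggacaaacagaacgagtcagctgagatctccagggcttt
Cd300a: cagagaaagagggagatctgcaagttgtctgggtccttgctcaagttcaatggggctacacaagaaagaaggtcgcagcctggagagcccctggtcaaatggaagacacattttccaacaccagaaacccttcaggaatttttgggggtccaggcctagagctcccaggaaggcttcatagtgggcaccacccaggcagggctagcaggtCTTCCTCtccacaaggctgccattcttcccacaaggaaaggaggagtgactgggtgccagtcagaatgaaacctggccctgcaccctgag
Cd300lf: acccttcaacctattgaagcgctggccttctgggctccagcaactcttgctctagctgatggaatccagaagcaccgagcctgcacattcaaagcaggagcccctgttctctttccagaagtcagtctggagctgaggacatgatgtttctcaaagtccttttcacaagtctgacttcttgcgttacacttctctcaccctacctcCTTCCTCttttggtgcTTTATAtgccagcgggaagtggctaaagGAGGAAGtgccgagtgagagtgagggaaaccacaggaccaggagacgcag
The Cd300lb window is chr11:114825148-114825447 (minus strand), that of Cd300a is chr11:114780617-114780916 (plus strand) and that of Cd300lf is chr11:115024769-115025068 (minus strand). The Cd300a window lies inside the gene as placed above, which begins at 114768840, so the RefSeq start site used is not the outermost start annotated. The windows of Cd300c and Cd300c2 also lie inside their genes.

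In the Cd300lb window TATAAA began 30 bases before the start site, and GAGGAAG was not among its letters. TATAAA was found in the windows of 2 members, Cd300lb and Cd300lf, and in 13.6% of 32851 promoter windows of the same length. GAGGAAG was found in the windows of 6 members and in 13.6% of all windows. These 6 were Cd300a, Cd300lf, Cd300ld, Cd300ld3, Cd300ld4 and Cd300ld5. Of the other motifs searched on both strands, GATAA was in 1 member window (25.4% of all windows), TGTGGT in 3 (16.8%), CANNTG in 7 (72.3%) and TGANTCA in 0 (7.81%). A match is a run of letters and not a bound site, and the letters of the BALB/c genome were not analysed here.

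The windows of the Cd300ld paralogs show why these genes have to be read with care. That of Cd300ld3 (chr11:114939107-114939406, minus strand) and that of Cd300ld4 are printed with the 15 of 300 positions at which they differ in capitals.
Cd300ld3: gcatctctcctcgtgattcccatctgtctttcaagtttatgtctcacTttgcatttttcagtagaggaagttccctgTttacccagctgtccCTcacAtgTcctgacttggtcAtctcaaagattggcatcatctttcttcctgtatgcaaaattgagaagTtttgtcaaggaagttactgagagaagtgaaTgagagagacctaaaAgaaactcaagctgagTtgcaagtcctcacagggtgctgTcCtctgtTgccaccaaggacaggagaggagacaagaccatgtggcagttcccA
Cd300ld4: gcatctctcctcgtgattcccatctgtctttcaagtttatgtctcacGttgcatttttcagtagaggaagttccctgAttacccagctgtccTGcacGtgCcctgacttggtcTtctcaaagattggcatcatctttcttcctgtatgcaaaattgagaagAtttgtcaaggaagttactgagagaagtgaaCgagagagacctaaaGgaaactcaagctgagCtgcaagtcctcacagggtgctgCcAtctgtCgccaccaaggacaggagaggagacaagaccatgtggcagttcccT
The Cd300ld4 window (chr11:114917710-114918009) is identical, over all 300 bases, to that of Cd300ld5 (chr11:114928467-114928766). The same 300 bases also occur at the start of Cd300ld2 (chr11:114907005-114907304), the member for which no window was listed, and all 3 copies are on the minus strand.

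The transcribed sequences of Cd300ld3, Cd300ld4 and Cd300ld5 are close to interchangeable as well, while Cd300ld2 was 69.2% to 69.5% identical to them. In the GENCODE annotation the former 3 have 1 transcript each of 852 bases, identical at 851 of 852 positions between Cd300ld4 and Cd300ld5 (99.9%), at 842 (98.8%) between Cd300ld3 and Cd300ld4 and at 843 (98.9%) between Cd300ld3 and Cd300ld5. Of the 31-base words in Cd300ld5, 100% also occurred in another member. The share was 96.2% for Cd300ld4, 84.1% for Cd300ld3 and 45.0% for Cd300ld2. Salmon divides reads that fit several transcripts by estimation, so the values of these 4 genes can trade reads and were also taken as a sum. The shared part was 7.62% for Cd300c2, 5.60% for Cd300ld, 2.72% for Cd300lf and Cd300c each, and 2.61% for Cd300a. Of the 158 shared words of Cd300c2, 131 occurred in Cd300a, and of the 146 of Cd300ld, 133 occurred in Cd300lf. A sum of the Cd300ld-named genes does not cover a division of reads with Cd300lf. Cd300lb shared 0 of its 2937 words, so such a division among the members is not expected for its values. These shares are from GENCODE transcripts, while Salmon's counts are on RefSeq transcripts, whose sequences were not compared here.

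Cd300lb, an activating receptor that pairs with DAP12, was the member with the widest absolute strain difference in TPM, low in BALB/c and well expressed in C57BL/6. BALB/c gave 145, 157 and 176 reads for it, against 2435, 2131 and 2839 from C57BL/6. Its level was 2.55, 2.86 and 2.51 TPM in BALB/c against 37.6, 37.4 and 39.1 TPM in C57BL/6. The lowest C57BL/6 library stood far above the highest BALB/c library, and the libraries of each strain lay close together. In CPM the means were 4.84 ± 0.381 and 78.4 ± 2.02 (SD, n = 3 each), a 16.2-fold difference. The fitted log2 fold change was 4.02 (SE 0.06). Of the tested genes, 25.1% had a lower mean TPM than Cd300lb in BALB/c, and 79.7% did in C57BL/6.

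Cd300a, the ITIM receptor for phosphatidylserine and phosphatidylethanolamine, was the most abundant member in both strains and differed little. Its level was 129, 142 and 132 TPM in BALB/c, against 133, 128 and 122 TPM in C57BL/6, and the strains overlapped. In CPM the means were 167 ± 9.30 and 180 ± 7.83 (SD, n = 3 each), with a log2 fold change of 0.10 (SE 0.05). The sign of this small difference depended on the scaling, being -0.04 with plain library size and -0.08 for log2(TPM + 1), 2 scales that also moved the median of all genes from -0.01 to -0.15 each. Cd300a stood above 93.6% of the tested genes in BALB/c and above 93.8% in C57BL/6 by mean TPM.

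Cd300lf, the second ITIM receptor and a receptor for ceramide and sphingomyelin, was slightly lower in C57BL/6. It was at 24.1, 23.4 and 23.1 TPM in BALB/c, against 19.7, 16.0 and 18.2 TPM in C57BL/6, without overlap. The CPM means were 27.5 ± 0.170 and 23.6 ± 2.06 (SD, n = 3 each), and the log2 fold change was -0.22 (SE 0.07), which is far from the 2-fold limit of a call. It was lower in C57BL/6 under all scalings tried, between -0.15 and -0.39 over the alternatives. Rab37, which contains Cd300lf on the other strand, had up to 8688 reads in a library and a log2 fold change of 0.20. The library kit keeps the strand, but how Salmon was told to use it is not given in the sources used here.

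**Figure D1:**
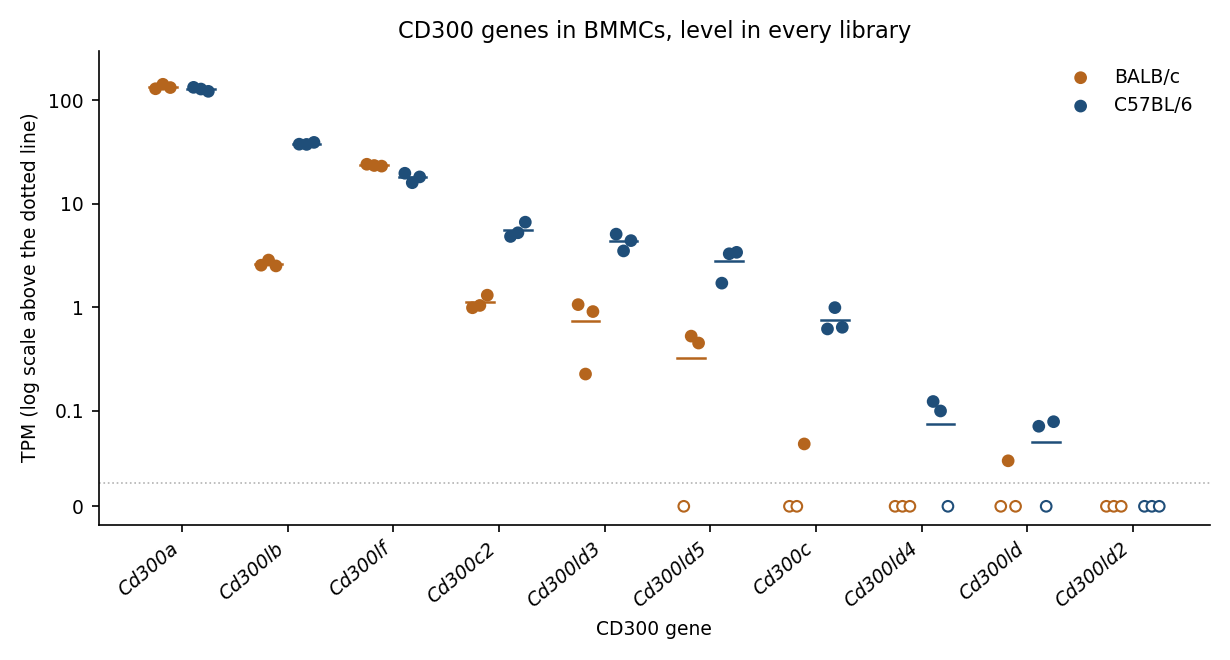
Level of each CD300 gene in TPM (log scale above the dotted line, 0 below it, open circles) in the 3 BALB/c and 3 C57BL/6 libraries, with short lines at the strain means above the dotted line. Cd300a lies at 122 to 142 TPM in all libraries, with overlap between strains, while Cd300lb stands at 2.51 to 2.86 TPM in BALB/c, against 37.4 to 39.1 TPM in C57BL/6.

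Cd300c2, an activating member, had 21.0, 21.0 and 33.9 estimated reads in BALB/c, against 116, 112 and 180 in C57BL/6. These are 0.991, 1.04 and 1.31 TPM against 4.83, 5.25 and 6.64 TPM, and the strains did not overlap. The CPM means were 0.756 ± 0.128 and 4.28 ± 0.731 (SD, n = 3 each), with a log2 fold change of 2.49 (SE 0.21). In C57BL/6 it reached about the level of Cd300ld3 and stayed under that of Cd300lf.

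Cd300c, another activating member, was close to the limit of detection. Its reads numbered 0, 0 and 1 among the BALB/c libraries, against 12, 17 and 14 for C57BL/6. From the summed reads, 1 against 43, the rate in C57BL/6 was 45.2 times that in BALB/c, with an exact 95% interval of 7.69 to 1826 that covers counting error only. The fitted log2 fold change was 5.06 (SE 0.72) and was set largely by the single BALB/c read, in S11: it was 6.86 without S11 and 4.64 without S9. Even in C57BL/6 the level was 0.751 ± 0.210 TPM (SD, n = 3), above that of 13.8% of the tested genes.

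Among the Cd300ld paralogs, Cd300ld3 and Cd300ld5 carried nearly all reads. Cd300ld3 had 15.3, 3.18 and 16.3 estimated reads in BALB/c, against 83.2, 51.7 and 83.0 in C57BL/6, with a log2 fold change of 2.74 (SE 0.37). Cd300ld5 had 0, 7.0 and 7.69 in BALB/c, against 27.2, 46.0 and 60.6 in C57BL/6, with 3.20 (SE 0.59). For both genes all C57BL/6 libraries stood above all BALB/c libraries, and the BALB/c libraries varied several-fold among themselves. The low Cd300ld3 value of S10 came with reads on Cd300ld5, and S9 had its reads on Cd300ld3 and 0 on Cd300ld5.

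Cd300ld, which pairs with the Fc receptor γ chain, had 0, 1.57 and 0 estimated reads in BALB/c, against 4.03, 0 and 5.02 in C57BL/6. The rounded sums, 2 against 9, give a ratio of 4.73 with an exact 95% interval of 0.979 to 45.0 for counting error only, and the strains overlapped. Cd300ld4 was assigned 0 reads in BALB/c, against 1.96, 1.40 and 0 in C57BL/6, at or under the 3 reads taken as the floor. As 851 of 852 bases are identical to Cd300ld5, its own level cannot be known from these reads. Cd300ld2 had 0 reads in all 6 libraries, where 3 reads would correspond to 0.0809 to 0.106 CPM. Cd300e and Cd300lg, the other genes named Cd300 in the tables, also had 0 reads in all libraries, Cd300e lying between Cd300ld3 and Cd300lf and Cd300lg elsewhere on the chromosome.

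The 5 Cd300ld-named genes were also taken as a sum, on which the division of reads among them has no bearing. The sum was 15.3, 11.8 and 24.0 estimated reads in BALB/c, against 116, 99.0 and 149 in C57BL/6. In CPM the means were 0.505 ± 0.124 and 3.83 ± 0.315 (SD, n = 3 each), and the log2 fold change of the sum was 2.90 (SE 0.21). The standard error was smaller than that of Cd300ld3 or Cd300ld5 alone. Restricted to the 3 near-identical genes Cd300ld3, Cd300ld4 and Cd300ld5, a sum added after the data were seen, the log2 fold change was 2.93 (SE 0.22).

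Counted together, 7 of the 10 members passed the filter on low counts. Of these, 5 were called higher in C57BL/6 (Cd300lb, Cd300c, Cd300c2, Cd300ld3 and Cd300ld5), 0 were called lower, beside 7.73% and 5.54% of all tested genes, and Cd300a and Cd300lf were not called, in edgeR and in DESeq2 alike. Of the 5, Cd300c was not called for log2(TPM + 1), Cd300ld5 not with unmatched transcripts kept, and Cd300ld3 was not tested with curated transcripts alone. By adjusted p alone, without the fold criterion, 1 was lower, Cd300lf. The strains did not overlap in CPM in 6 of the 7, a pattern that 61.9% of all tested genes also show. Cd300c, Cd300ld3 and Cd300ld5 passed the filter through their C57BL/6 libraries, so for them the filter itself favours a difference. Cd300ld3 and Cd300ld5 also count as separate members only through Salmon's division of shared reads. Where at least 10 counts were asked of each of the 6 libraries, 2 members were called higher, Cd300lb and Cd300c2. Because the family was chosen on this contrast, nothing is read from these counts.

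The order of the members by TPM changed between the strains below the first rank. In BALB/c it was Cd300a, Cd300lf, Cd300lb and Cd300c2, and each library of a gene stood above each library of the next down to Cd300c2. Cd300c2, Cd300ld3 and Cd300ld5 followed with overlapping values. In C57BL/6 it was Cd300a, Cd300lb, Cd300lf and then Cd300c2 with Cd300ld3, the last pair overlapping, followed by Cd300ld5 and Cd300c. Within a library the ratio of Cd300lf to Cd300lb was 9.43, 8.18 and 9.19 in BALB/c, against 0.524, 0.427 and 0.464 in C57BL/6. These ratios do not depend on how libraries are scaled to each other.

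The make-up of CD300 RNA followed from these levels. Cd300a made up 82.6% ± 0.870 of the summed TPM of the family in BALB/c, against 64.7% ± 1.75 in C57BL/6 (SD, n = 3 each). Cd300lf made up 14.5% ± 0.773 and 9.09% ± 0.788, and Cd300lb 1.62% ± 0.0578 and 19.3% ± 0.806. The ITIM receptors Cd300a and Cd300lf together made up 97.1%, 97.2% and 96.7% in the BALB/c libraries, against 75.3%, 74.0% and 72.0% in the C57BL/6 libraries. The TPM of the ITIM receptors exceeded that of the 8 other members 29.7-fold to 35.3-fold in BALB/c, against 2.58-fold to 3.05-fold in C57BL/6. In CPM the ITIM pair summed to 195 ± 9.14 and 203 ± 7.68, with overlap between the strains, and the other members to 6.10 ± 0.358 and 87.0 ± 3.01. In TPM the order of the ITIM pair turned, at 153, 166 and 155 in BALB/c, against 153, 144 and 140 in C57BL/6, with no overlap before rounding (BALB/c from 152.95, C57BL/6 up to 152.69).

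**Figure D2:**
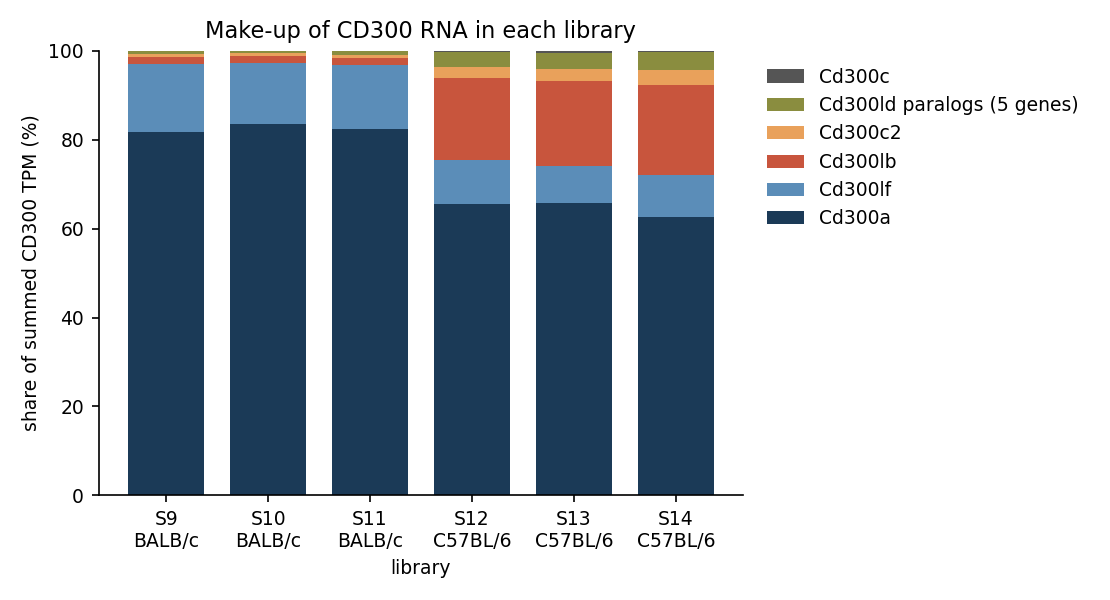
Stacked bars give the share of each CD300 gene, with the 5 Cd300ld paralogs joined, in the summed CD300 TPM of each library, in percent. Cd300lb grows from 1.62% in BALB/c to 19.3% in C57BL/6 on average, and Cd300a and Cd300lf together fall from 97.0% to 73.8%.

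The summed reads of the family were more abundant in C57BL/6, below the 2-fold limit of a call, and most of the difference lay in Cd300lb, at 4.84 ± 0.381 and 78.4 ± 2.02 CPM. Summed over the 10 members it came to 201 ± 9.48 CPM in BALB/c, against 290 ± 5.04 CPM in C57BL/6 (SD, n = 3 each), a log2 fold change of 0.53 (SE 0.04). In TPM the sums were 158, 170 and 161 against 203, 195 and 194, a 1.21-fold difference of the means. TPM divide by transcript length, which was 2643 and 2867 bases for Cd300lb and 1937 bases for the main transcript of Cd300a in the tables, and carry no TMM correction.

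Use of transcripts within members did not separate the strains. The Cd300lb transcript of 2643 bases took 56.1%, 34.1% and 40.9% of the gene's reads in BALB/c, against 43.9%, 53.9% and 49.0% in C57BL/6. The main Cd300a transcript took 87.4%, 88.1% and 85.3% in BALB/c, against 82.5%, 85.8% and 87.2% in C57BL/6. Both Cd300lb transcripts were therefore higher in C57BL/6, and neither gene showed a shift in isoform outside the spread of the libraries. Cd300lf spread its reads over 4 transcripts, with shares that overlapped between strains for each.

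On the chromosome the ITIM receptors Cd300a and Cd300lf are the outermost members and the other 8 lie between them, with Cd300ld, Cd300ld2 and Cd300ld4, which had too few reads to be tested, among the members called higher. Around and within the cluster 22 other protein-coding genes were taken by position, 10 on each side and 2 between the members. Of these 11 were tested, 0 were called higher and 1 lower, beside 7.73% and 5.54% of all tested genes. At an unadjusted p under 0.05, without the fold criterion, 5 were higher and 2 lower in edgeR, the same counts as at an adjusted p under 0.05. DESeq2 called 0 higher and 1 lower.

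The neighbour called lower was Grin2c, a subunit of the NMDA type of glutamate receptor, at 174, 190 and 162 CPM in BALB/c, against 40.7, 39.4 and 38.3 CPM in C57BL/6. Its log2 fold change was -2.15 (SE 0.06, adjusted p = 1.42e-08 by edgeR's quasi-likelihood test). The nearest gene before the cluster, Gprc5c, had at most 5 reads in a library and was not tested. The nearest after it, Slc9a3r1 (Nherf1 in newer annotation), a scaffold protein of the cell cortex, was at 377 ± 20.5 and 467 ± 12.4 CPM (SD, n = 3 each), with a log2 fold change of 0.31 (SE 0.05, adjusted p = 0.000439, edgeR). The next genes, Nat9 and Tmem104, had 0.50 (SE 0.06) and 0.75 (SE 0.05). Slc9a3r1, Nat9 and Tmem104 thus differed by less than 2-fold. The strains did not overlap in CPM for them, as for 61.9% of all tested genes.

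**Figure D3:**
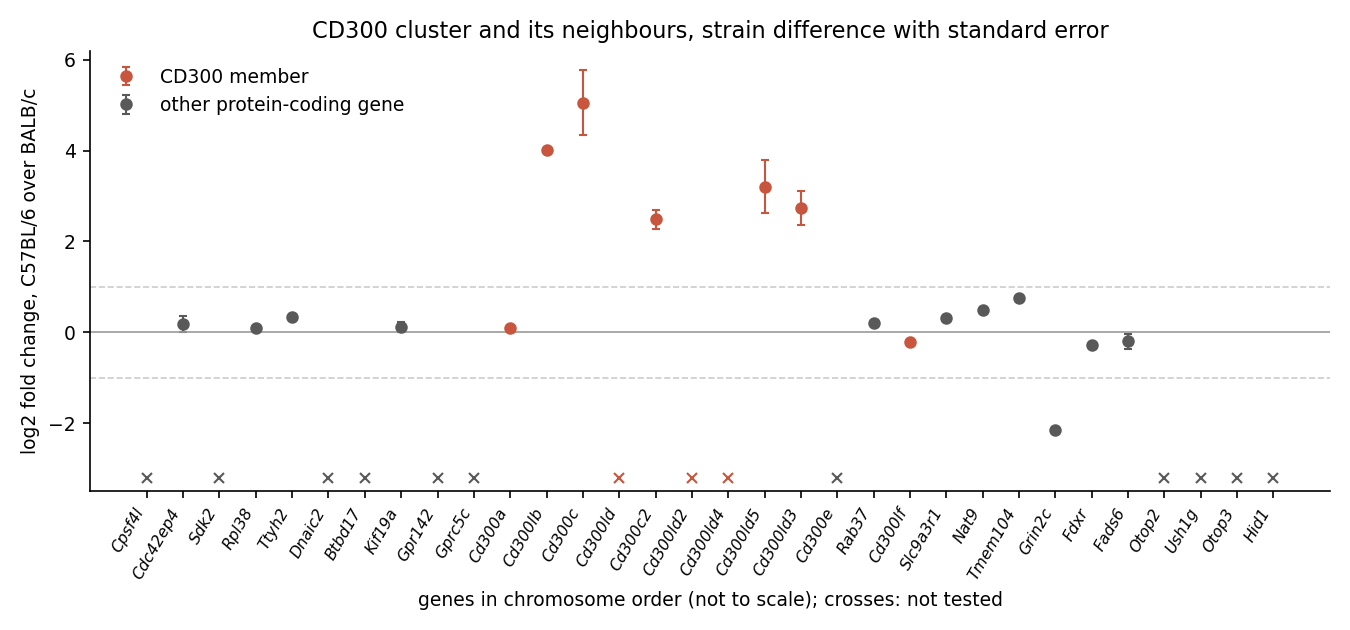
Fitted log2 fold change (C57BL/6 over BALB/c) with its standard error for the CD300 members and the 22 other protein-coding genes, in chromosome order and not to scale, with dashed lines at 2-fold and crosses for genes not tested. The members between Cd300a and Cd300lf that were tested lie between 2.49 and 5.06, and Grin2c lies at -2.15.

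The adaptors through which activating CD300 receptors signal did not rise along with Cd300lb as a group. Tyrobp, which encodes DAP12, was at 52.3, 75.2 and 65.8 CPM in BALB/c, against 44.3, 36.5 and 37.8 CPM in C57BL/6, lower in C57BL/6 without overlap. Its log2 fold change was -0.70 (SE 0.12, adjusted p = 0.00124, edgeR). Hcst, which encodes DAP10, was at 14.1 ± 1.12 and 11.5 ± 0.375 CPM, with -0.29 (SE 0.08, adjusted p = 0.016). Fcer1g, the γ chain that mast cells also use for the IgE receptor, was at 295 ± 13.9 and 352 ± 8.86 CPM (SD, n = 3 each), with 0.26 (SE 0.04, adjusted p = 0.00103). None of these 3 reached a 2-fold change, and DESeq2 called 0 of them. At an unadjusted p under 0.05 in edgeR, 1 was higher and 2 lower.

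The phosphatases recruited by ITIMs differed between the strains by less than 2-fold. Ptpn6, which encodes SHP-1, was at 177 ± 6.99 CPM in BALB/c, against 141 ± 6.96 CPM in C57BL/6 (SD, n = 3 each), with a log2 fold change of -0.32 (SE 0.05, adjusted p = 0.000463, edgeR). Ptpn11, which encodes SHP-2, had -0.07 (SE 0.04, adjusted p = 0.131). Inpp5d, which encodes SHIP-1, had -0.03 (SE 0.03, adjusted p = 0.448), with BALB/c libraries at 658 to 688 CPM and C57BL/6 libraries at 651 to 671 CPM. None of the 3 was called by edgeR or DESeq2, and 1 was lower at an unadjusted p under 0.05.

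**Figure D4:**
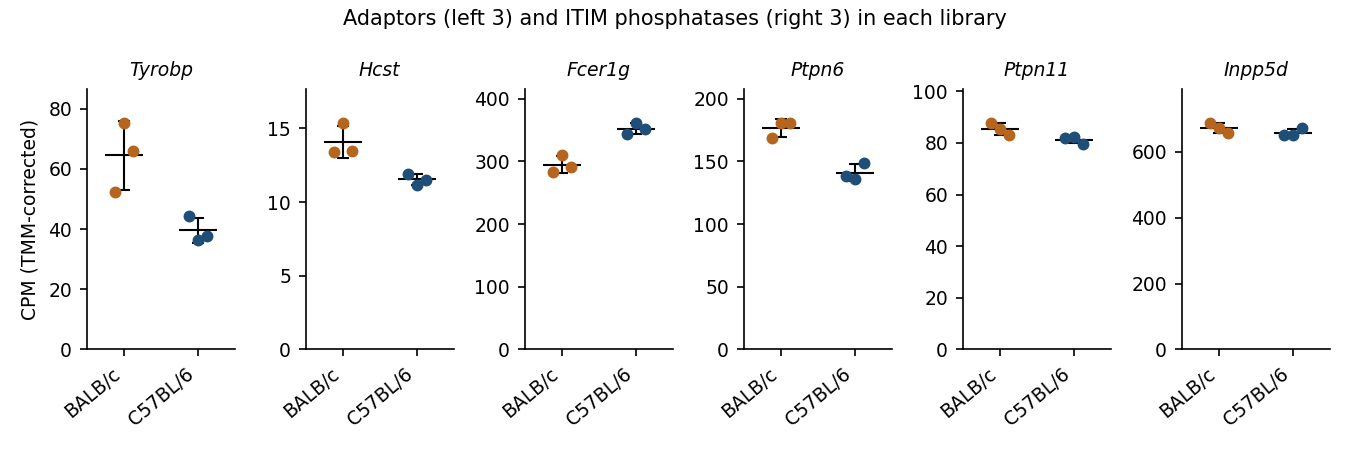
CPM of the adaptors Tyrobp, Hcst and Fcer1g and the phosphatases Ptpn6, Ptpn11 and Inpp5d in each library, with the mean and SD of each strain (n = 3) and axes from 0. Tyrobp, Hcst, Ptpn6 and Ptpn11 are lower and Fcer1g is higher in C57BL/6 without overlap, all by less than 2-fold, while Inpp5d overlaps. Of all tested genes, 61.9% show no overlap in CPM.

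Over all 7 lists of pathway genes, 46 of 57 genes were tested, with 1 called higher and 2 lower, beside 7.73% and 5.54% of all tested genes. Among 18 kinases and signalling proteins downstream of ITAM adaptors 16 were tested, and their log2 fold changes had a median of 0.09, beside -0.01 for all genes. Fyn, a Src family kinase, was called higher, at 16.5, 10.5 and 18.6 CPM in BALB/c, against 27.6, 36.6 and 33.2 CPM in C57BL/6 (log2 fold change 1.08, SE 0.18, adjusted p = 0.000953, edgeR). This lies just above the 2-fold limit, and without S10 or without S13 the count of pathway genes called higher was 0. Plcg1, a phospholipase C, was called lower, from 176 ± 7.07 to 80.1 ± 1.04 CPM (SD, n = 3 each), with -1.13 (SE 0.04, adjusted p = 6.62e-08). Lyn, Lat and Lcp2, which act close to the IgE receptor, had log2 fold changes of 0.56, 0.48 and 0.43, under the 2-fold limit, and Syk had 0.15.

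Among 14 other receptors and bridging proteins for phosphatidylserine, the lipid that Cd300a also binds, 7 were tested, with 0 called higher and 1 lower by edgeR and by DESeq2. At an unadjusted p under 0.05 in edgeR, 1 was higher and 3 lower. Stab2, which encodes a scavenger receptor for this lipid, was at 11.6, 15.2 and 11.8 CPM in BALB/c, against 2.60, 2.04 and 2.01 CPM in C57BL/6. Its log2 fold change was -2.53 (SE 0.15, adjusted p = 1.39e-06, edgeR), and its libraries did not overlap. Havcr2, which encodes TIM-3, was level at 90.7 ± 1.19 and 91.2 ± 0.974 CPM. Mertk, Timd4, Havcr1 and Adgrb1 had 0 reads in all libraries.

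Genes that make or expose the ligands showed no call by edgeR or DESeq2. The 9 genes of ceramide and sphingomyelin synthesis were all tested, with 0 called in either direction, and the median of their log2 fold changes was 0.01. At an unadjusted p under 0.05 in edgeR, 4 were higher and 3 lower, the widest being Cers4 at -0.70 (SE 0.09) and Degs1 at 0.60 (SE 0.04). Of 6 scramblases 4 were tested and 0 called. Plscr1 at 0.69 (SE 0.08) and Plscr3 at 0.61 (SE 0.07), the 2 with an unadjusted p under 0.05 in edgeR, were below the limit. Xkr8 at 0.10 (SE 0.16) and Ano6 at 0.025 (SE 0.04) were level between the strains. Cd300lb is known to act with the lipopolysaccharide receptor, whose 4 listed genes had 0 calls and 2 genes higher at an unadjusted p under 0.05, Ly96 at 0.50 (SE 0.16) and Tlr4 at 0.34 (SE 0.06).

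By distance between log2(CPM + 1) values over the 6 libraries, the genes most like Cd300lb among 11438 protein-coding genes were Ccl3, Tdg and Jup. Ccl3, a chemokine made by activated mast cells, was at 6.87, 4.88 and 3.67 CPM in BALB/c, against 82.7, 58.6 and 51.4 CPM in C57BL/6, at a distance of 0.964. Tdg, a DNA glycosylase, followed at 1.03, and Jup, the junction protein plakoglobin, at 1.05. These distances cover level as well as strain difference, over 2 groups of 3 libraries.

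CD300 genes are also expressed by other myeloid cells, so the markers of those cells are given beside the members. In bulk RNA a change in the number of cells of a type and a change of RNA per cell cannot be told apart. Of 11 macrophage or monocyte markers 3 were tested and all 3 were called higher in C57BL/6: Adgre1 (0.309 ± 0.271 to 9.92 ± 0.407 CPM), Cd68 (0.914 ± 0.214 to 3.71 ± 0.428 CPM) and Ccr2 (6.90 ± 1.91 to 17.2 ± 2.89 CPM; SD, n = 3 each). The list summed to 6.79 to 10.3 CPM in BALB/c, against 28.1 to 33.4 CPM in C57BL/6. The defining markers Csf1r, C1qa, C1qb and C1qc had 0 reads in all libraries, and Lyz2 was at most 0.0739 CPM.

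Of 6 dendritic cell markers Itgax alone was tested, at 8.08 ± 0.408 and 37.5 ± 1.07 CPM (SD, n = 3 each), and the list summed to 7.74 to 8.59 CPM in BALB/c, against 37.1 to 38.9 CPM in C57BL/6. Flt3 averaged 0.0578 CPM at most, and Clec9a had 0 reads. The 8 basophil markers were all tested, 4 of them called higher (Mcpt8, Prss34, Cebpa and Ccl9), with sums of 406 to 418 CPM and 512 to 523 CPM, of which Cd200r3 made up 310 ± 4.67 and 297 ± 6.54 CPM. Among those called, Cebpa was at 0.104 ± 0.0520 and 9.70 ± 0.538 CPM, Ccl9 at 0.224 ± 0.106 and 10.8 ± 0.568 CPM, and Prss34 at 0.118 ± 0.131 and 6.70 ± 0.379 CPM in BALB/c and C57BL/6 (SD, n = 3 each). Mcpt8 was at 84.0 ± 3.73 and 183 ± 2.90 CPM. Il18r1, which was not called, was at 13.8 ± 2.04 and 9.47 ± 0.760 CPM, and at an unadjusted p under 0.05 in edgeR 5 of the 8 were higher and 1 lower. The neutrophil list summed to at most 0.186 CPM, with 6 of 8 genes at 0 reads. The part of these cell types in the strain difference of the CD300 members was not tested.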

How the data were processed

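RNA of 3 BALB/c and 3 C57BL/6 BMMC libraries was analysed. The authors checked the reads with FastQC 0.11.5 and assigned them to transcripts with Salmon 0.8.2, and the deposited tables give each transcript an estimated count, which need not be whole, and a deposited TPM value. The study names Ensembl transcripts of GRCm39 while the tables list RefSeq transcripts, and the strand setting of Salmon is not given in the sources used here.

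Transcripts were matched to symbols, without version, through a RefSeq gene table (GRCm38.p6, names only): 106440 of 129698 matched, and the rest, 2.69% to 3.12% of reads, stayed out. Estimated counts and TPM were summed by gene, and counts were rounded for the tests. Coordinates and transcript sequences are GENCODE vM39 (GRCm39), and promoter windows are RefSeq's. No protein sequences were used here.

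Strains were compared with edgeR 4.0.16 (R 4.3.3): quasi-likelihood test, TMM, filter at a minimum count of 10, Benjamini-Hochberg adjustment over 12461 genes. A gene was called at an adjusted p under 0.05 and a fold change above 2, the study's thresholds. The standard error is the size of the log2 fold change divided by the root of F. The biological coefficient of variation was 0.0665, so the number of libraries limits precision except for members with few reads. Ratios of summed low counts have exact 95% intervals from a binomial split of the counts, and cover counting error only. Replicates differed by more than counting noise (chi-square per degree of freedom 6.60 to 13.6). Alternatives were DESeq2 1.42.0, log2(TPM + 1) or log2(TPM + 0.1) in limma 3.58.1, other scalings and filters, a length offset, unmatched transcripts kept, curated transcripts alone, adjusted p alone and each library left out. Sequences were compared in Biopython 1.88, and motifs were searched on both strands.

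The text names all members, other genes named Cd300, called pathway genes, all adaptors and phosphatases, called and nearest neighbours, and the 3 genes most like Cd300lb. All other genes named, cell type markers included, were picked after their values were seen. The members, lists and tests were chosen with earlier results of these data known.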

Additional observations from a re-analysis of the deposited data

How the results depend on the processing

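The count of members called higher, 5 in the reported fit, left 5 under 4 of the 18 alternatives. It was 2 with 10 counts required in every library, which removes members low in BALB/c by construction, and 4 under the others: for log2(TPM + 1), where Cd300c was 0.78 and under the 2-fold limit, with unmatched transcripts kept, where Cd300ld5 lost its call at 3.21, and with curated transcripts alone, where Cd300ld3 was not among the genes tested. Members called lower were 1 by adjusted p alone (Cd300lf) and 0 otherwise. Leaving out each library in turn kept the counts at 5 and 0. The summed Cd300ld paralogs, 2.90 in log2 fold change, were 2.0 for log2(TPM + 1) and 2.77 to 3.12 with a library left out. The summed CD300 members, 0.53, were 0.45 with a length offset, 0.39 with plain library size, 0.27 for log2(TPM + 1), 0.28 for log2(TPM + 0.1) and 0.49 to 0.56 with a library left out. Pathway genes called higher, 1 in the reported fit, were 0 with plain library size and for log2(TPM + 1) and log2(TPM + 0.1), 3 without a filter, 18 by adjusted p alone and 0 to 1 with a library left out. Those called lower, 2 in the reported fit, were 4 with plain library size, 1 with curated transcripts alone, 10 by adjusted p alone and 2 to 3 with a library left out. Neighbours called higher, 0 in the reported fit, were 5 by adjusted p alone. Those called lower, 1 in the reported fit, were 0 with curated transcripts alone, where Grin2c was not among the genes tested, and 2 by adjusted p alone. For shifts without a stated reason the cause was not tested. The reported 963 higher and 690 lower genes were 838 and 829 with plain library size, 434 and 365 for log2(TPM + 1), and 745 and 746 for log2(TPM + 0.1), where the median of all genes was -0.15, -0.15 and -0.18. With 10 counts in every library they were 613 and 404. Cd300lb lay between 3.42 and 4.08 over all alternatives. Cd300c, which has 1 read in BALB/c, lay between 0.78 and 6.86. For log2(TPM + 1) Cd300c2 was 1.63 (reported 2.49), Cd300ld3 1.65 (2.74) and Cd300ld5 1.51 (3.20), and Cd300ld3 and Cd300ld5 were filtered out under some alternatives. No paired analysis was possible because the labels name the libraries S9 to S14, with no number shared between the strains, and the replicate numbers 1 to 3 were given here in accession order. For Cd300c and Cd300ld depth limits the precision. For Cd300ld4 and Cd300ld2, of whose 31-base words 96.2% and 45.0% occur in other members, shared sequence limits it too, which more depth would not remove.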
